A study of Mus musculus with 12 samples.

Results

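The 6 libraries described here are those labelled Trmt61A conditional knockout (cKO), out of 12 in the series, and they were chosen by their labels. They fall into cKO CD8 T cells at 48 h and cKO CD8 T cells at 0 h, with 3 libraries each, and the remaining 6 libraries are wild type (WT) at the same times. All were made from primary CD8 T cells of the spleen of C57BL/6 mice. The labels name neither the Cre driver of the knockout nor the treatment of the cells between the times, and they do not say whether a replicate number marks a mouse. The p-values below therefore measure the spread between these libraries, which may be technical. The comparison asks what changed in the transcripts of cells labelled cKO over the 48 h. It was described across all genes, gene lists and the pathway names of the deposited table.

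TRMT61A is the catalytic subunit, and TRMT6 the partner subunit, of the enzyme that methylates an adenosine of many cytosolic tRNAs to give m1A. Naive CD8 T cells are small resting cells that express homing receptors and little of the machinery of growth. When their antigen receptor is engaged they enter the cell cycle, take up nutrients, build ribosomes and membranes, and start to make cytokines and the proteases of cytotoxic granules.

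The targeted gene went against 1 of the 3 replicate labels at each time. Trmt61a had 42.5, 0.956 and 1.1 CPM at 48 h, against 28.1, 0.807 and 1.88 CPM at 0 h, in the order of replicates 1, 2 and 3, which is kept throughout. The first value at each time, from the library labelled cKO replicate 1, lay at the level of the WT libraries, and the other 4 were low. The WT libraries had 42, 38.2 and 34.8 CPM at 48 h, against 27.4, 29.8 and 26.3 CPM at 0 h. CPM are counts per 1000000 counts of a library, scaled with TMM factors. The log2 fold change of Trmt61a over the 48 h was 0.54 ± 1.13 (edgeR adjusted p = 0.681), and it was -0.38 when both libraries labelled cKO replicate 1 were left out. That setting is called "without replicate 1" below. Its values stand beside the main ones for the gene totals, the described lists, and some pathway sets and single genes. Values after ± are standard errors of log2 fold changes, with n = 3 libraries per group. Trmt6 had 106, 95.5 and 98.7 CPM at 48 h, against 52.4, 46.8 and 46.8 CPM at 0 h. Its groups did not overlap and its log2 fold change was 1.04 ± 0.09 (edgeR adjusted p = 8.8e-08).

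**Figure D1:**
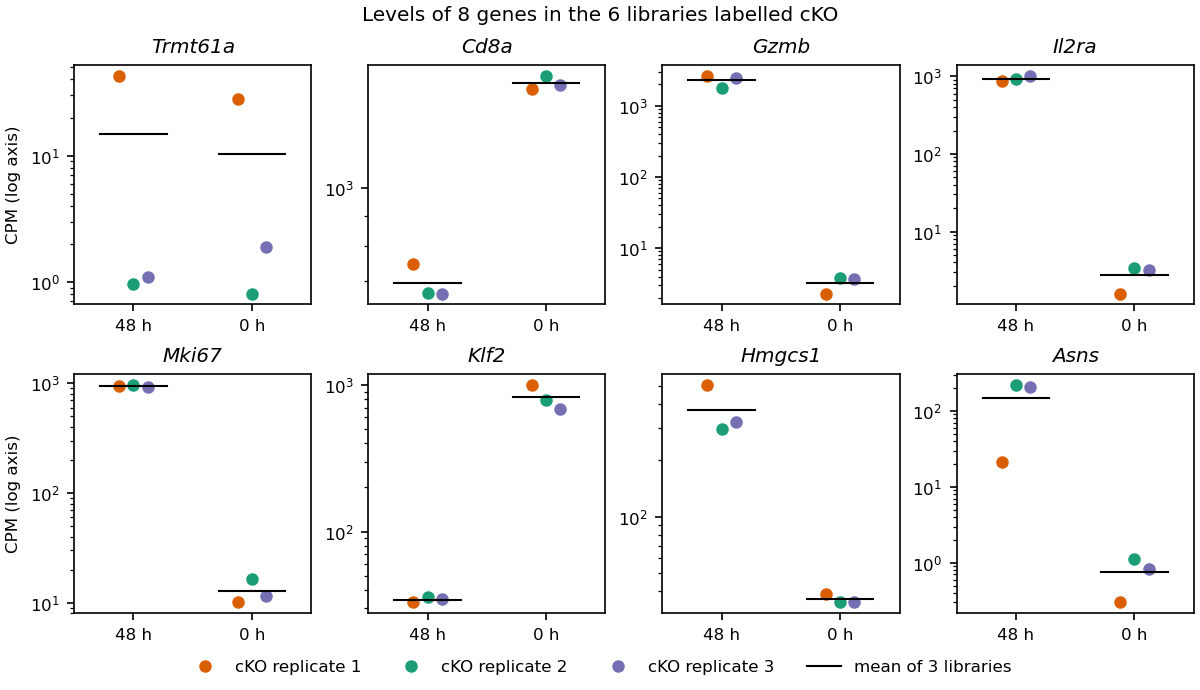
CPM on a log axis for 8 genes in the 6 cKO libraries, with 48 h left of 0 h, 1 coloured point per library and a black line at the mean of 3 libraries. Trmt61a is high in the library labelled cKO replicate 1 at both times, Cd8a and Klf2 are lower at 48 h, and the other 5 genes are higher at 48 h, with Asns spread between 21.3 and 221 CPM there.

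Total counts ran from 35355150 to 38265329 per library at 48 h and from 34341847 to 35027170 at 0 h. The 100 most abundant genes took 18.5 to 19.3% of the counts at 48 h and 24.1 to 24.9% at 0 h. The labelled cell type was checked on its markers. Cd8a, a chain of the CD8 coreceptor, had 747, 669 and 666 CPM at 48 h, against 1468, 1541 and 1489 CPM at 0 h, and Cd3e, a chain of the T cell receptor complex, had 136, 139 and 139 CPM at 48 h, against 392, 379 and 366 CPM at 0 h. Both were present in all 6 libraries and lower at 48 h, without overlap.

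Nearly 3 in 4 tested genes changed. Of 12404 genes tested, 4513 rose (36.4%) and 4491 fell (36.2%) by edgeR's quasi-likelihood test at an adjusted p under 0.05, and 3400 were not called. The rise or fall was at least 2-fold for 2354 and 2064 genes, at least 16-fold for 501 and 260, and at least 64-fold for 209 and 129. Larger changes were thus more often rises. The shares of 36.4% and 36.2% are the background for every list and set below. The median log2 fold change of all tested genes was -0.02, and -0.115 with upper-quartile scaling. TMM scaling itself brings the typical gene near 0, so this median and the balance of rises and falls depend on the scaling. The CPM of the 2 groups did not overlap for 74.8% of tested genes. Without replicate 1, 4234 genes rose (34.1%) and 4124 fell (33.2%). Of these, 4123 and 4015 were among those called with all libraries, which is 97.4% of each set without replicate 1, and 91.4% and 89.4% of the sets with all libraries. No gene was called in opposite directions in the 2 settings.

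**Figure D2:**
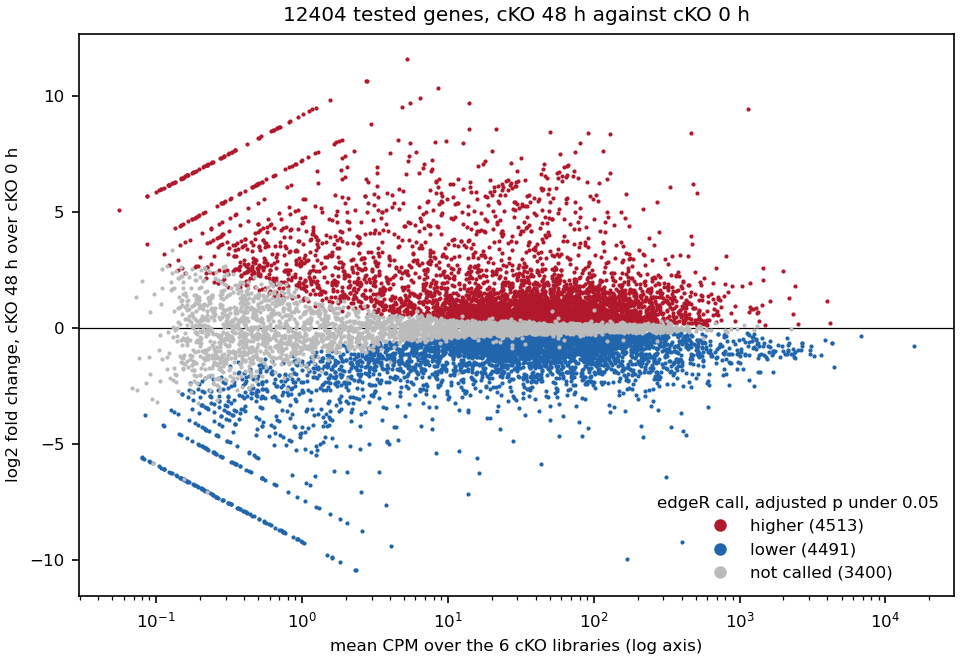
Log2 fold change, cKO 48 h over cKO 0 h, against the mean CPM of the 6 cKO libraries on a log axis, with 1 point per tested gene. Red points rose (4513), blue points fell (4491) and grey points were not called (3400); the straight diagonal rows at low levels are genes with 0 or very few counts in 1 group.

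Genes of the cell cycle rose with 1 exception in both lists below. Of the S phase genes, 50 of 50 tested members rose and 0 fell (median log2 change 2.39), and 50 rose and 0 fell without replicate 1 (median 2.35). Orc1, the largest subunit of the origin recognition complex, had 65.1, 44.9 and 51.5 CPM at 48 h, against 0.449, 0.433 and 0.269 CPM at 0 h. Mcm10, which helps to start the replication fork, had 138, 107 and 126 CPM at 48 h, against 0.807, 1.53 and 0.627 CPM at 0 h. In both genes every 48 h library was far above every 0 h library, and their log2 fold changes were 7.12 ± 0.24 (edgeR adjusted p = 4.22e-12) and 6.96 ± 0.20 (edgeR adjusted p = 7.18e-13). Pcna, the sliding clamp of DNA polymerase, was already expressed at 0 h and had 624, 625 and 646 CPM at 48 h, against 129, 139 and 135 CPM at 0 h (2.24 ± 0.06).

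Of the genes of G2/M, 43 of 44 tested members rose and 1 fell (median log2 change 5.57), and 43 rose and 1 fell without replicate 1 (median 5.46). Espl1 encodes separase, the protease that cuts cohesin at anaphase, and had 149.7, 115 and 132 CPM at 48 h, against 1.05, 1.59 and 0.358 CPM at 0 h, and its log2 fold change was 7.04 ± 0.32 (edgeR adjusted p = 7.38e-11). Cenpf, a kinetochore protein, had 128, 128 and 133 CPM at 48 h, against 1.56, 0.779 and 0.687 CPM at 0 h (7.0 ± 0.20). Top2a, the topoisomerase that untangles mitotic chromosomes, was the most abundant member at 48 h, with 957, 1028 and 1009 CPM at 48 h, against 13.8, 21.3 and 17.7 CPM at 0 h (5.82 ± 0.14). The 1 member that fell was Pttg1, which encodes securin, the inhibitor of separase. It had 16.9, 13 and 12.3 CPM at 48 h, against 29.6, 27 and 26 CPM at 0 h, without overlap, and fell by 0.97 ± 0.13 on the log2 scale (edgeR adjusted p = 7.99e-06).

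Most regulators of entry into the cycle rose. Of the G1 cyclins, CDK inhibitors, E2F and RB genes, 20 of 26 tested members rose and 5 fell (median log2 change 1.29), and 19 rose and 6 fell without replicate 1 (median 1.24). Cdkn1a, which encodes the CDK inhibitor p21, had 45.2, 64.7 and 78.6 CPM at 48 h, against 0.449, 0.317 and 0.388 CPM at 0 h (7.34 ± 0.34), so this inhibitor rose in all 3 libraries. Cdkn2d, another CDK inhibitor, had 25.5, 26.8 and 30.7 CPM at 48 h, against 89.4, 94.5 and 119.9 CPM at 0 h and fell by 1.87 ± 0.11 on the log2 scale. E2f7, a repressing member of the E2F family, had 17, 14.7 and 14.5 CPM at 48 h, against 0.0598, 0.231 and 0.0896 CPM at 0 h (6.88 ± 0.30). Ccnd2, the abundant D-type cyclin of these cells, had 991, 953 and 1064 CPM at 48 h, against 376, 419 and 444 CPM at 0 h (1.28 ± 0.15), whereas Ccnd1 was low at both times, with 0.0256, 0.266 and 0.21 CPM at 48 h, against 3.05, 2.8 and 0.956 CPM at 0 h, and fell by 3.74 ± 0.90 on the log2 scale.

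Promoter sequences of 3 cell cycle genes are shown because short motifs known from cell cycle promoters were common in these lists. They run from 250 bases before to 50 after the start of the RefSeq transcript on GRCm38.p6, written 5′ to 3′ on the gene's strand, and capitals mark the motif. The genes to show were chosen after their values were seen. In Cdc6 (a replication licensing gene, chr11:98907901-98908200, plus strand) the capitals mark the E2F site core TTCCCGC, here read on the opposite strand. In Espl1 (chr15:102296043-102296342, plus strand) and Mki67 (a marker of cycling cells, chr7:135716330-135716629, minus strand) they mark TTTGAA, the cell cycle genes homology region, and CCAAT, the CCAAT box, on either strand.
Cdc6: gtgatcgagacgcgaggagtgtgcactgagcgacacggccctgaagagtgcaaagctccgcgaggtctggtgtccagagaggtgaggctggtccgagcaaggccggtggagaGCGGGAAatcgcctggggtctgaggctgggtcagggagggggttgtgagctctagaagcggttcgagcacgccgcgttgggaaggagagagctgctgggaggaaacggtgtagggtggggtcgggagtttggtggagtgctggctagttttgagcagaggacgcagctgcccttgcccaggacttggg
Espl1: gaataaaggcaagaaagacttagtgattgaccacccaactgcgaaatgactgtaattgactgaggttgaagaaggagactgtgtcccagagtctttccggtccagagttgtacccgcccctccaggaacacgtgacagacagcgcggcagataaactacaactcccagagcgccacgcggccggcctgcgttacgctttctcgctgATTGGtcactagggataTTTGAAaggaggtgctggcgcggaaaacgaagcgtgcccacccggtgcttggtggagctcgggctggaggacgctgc
Mki67: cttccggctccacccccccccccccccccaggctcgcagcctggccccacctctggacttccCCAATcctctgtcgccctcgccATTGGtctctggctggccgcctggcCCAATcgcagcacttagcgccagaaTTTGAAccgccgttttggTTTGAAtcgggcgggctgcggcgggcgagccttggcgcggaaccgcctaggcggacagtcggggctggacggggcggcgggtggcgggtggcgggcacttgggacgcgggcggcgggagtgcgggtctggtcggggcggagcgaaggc
Promoters were given for 41 of the 50 S phase genes, and 16 of the 41 (39%) held TTCCCGC on either strand, against 9.68% of 9941 tested genes with a promoter and 5.29% of all 27025 promoters of the same length. Promoters were given for 36 of the 44 G2/M genes. Of these, 26 (72.2%) held TTTGAA, against 14.6% and 20.2%, and 28 (77.8%) held CCAAT, against 43.4% and 41.1%. A match of letters is a description and no evidence of binding. Cdc6 itself had 128, 99.5 and 103 CPM at 48 h, against 1.02, 1.21 and 0.926 CPM at 0 h, and its log2 fold change was 6.71 ± 0.15 (edgeR adjusted p = 1.38e-13).

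Genes of CD8 T cell identity were mostly lower at 48 h, while remaining among the expressed genes. In this list, 3 of 22 tested members rose and 17 fell (median log2 change -0.73), and 3 rose and 17 fell without replicate 1 (median -0.76). Cd8b1, the other CD8 chain, had 311, 304 and 300.3 CPM at 48 h, against 1169, 1245 and 1274 CPM at 0 h and fell by 2.01 ± 0.07 on the log2 scale (edgeR adjusted p = 5.61e-12). Cd3g, of the receptor complex, had 171, 165 and 161 CPM at 48 h, against 572, 591 and 571 CPM at 0 h and fell by 1.8 ± 0.06 on the log2 scale. The 3 members that rose were Cd5, Lcp2 and Cd28. Cd28, the main costimulatory receptor, had 249, 256 and 212 CPM at 48 h, against 81, 58.9 and 67.8 CPM at 0 h (1.79 ± 0.11, edgeR adjusted p = 2.62e-09), and every 48 h value lay above every 0 h value. Summed over the 22 members, the list had 8748, 8749 and 8632 CPM at 48 h, against 14037, 14299 and 14617 CPM at 0 h. CPM are shares of a library and not amounts per cell. In bulk libraries, fewer cells of a type, less RNA per cell and a smaller share of more total RNA cannot be told apart. This holds for every fall described here, and the rises are likewise rises in share.

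The naive, memory and homing list fell more. In it, 4 of 30 tested members rose and 22 fell (median log2 change -1.56), and 5 rose and 22 fell without replicate 1 (median -1.6). Klf2, a transcription factor of resting T cells, had 32.9, 35.7 and 34.5 CPM at 48 h, against 997, 794 and 689 CPM at 0 h and fell by 4.59 ± 0.17 on the log2 scale (edgeR adjusted p = 7.25e-12). Ccr9, a gut-homing chemokine receptor, had 6.52, 7.89 and 4.93 CPM at 48 h, against 155, 156 and 166 CPM at 0 h and fell by 4.62 ± 0.17 on the log2 scale. Tcf7, the abundant transcription factor of naive and memory T cells, had 459.7, 389 and 376 CPM at 48 h, against 2012, 1878 and 1856 CPM at 0 h and fell by 2.23 ± 0.09 on the log2 scale. None of these 3 genes overlapped between the times. Cd44 and Eomes, which mark antigen-experienced and memory cells, rose, with log2 fold changes of 3.98 ± 0.27 and 1.48 ± 0.17. Of the KLF, SLFN and GIMAP genes, which are linked to lymphocyte quiescence and survival, 3 of 25 tested members rose and 17 fell (median log2 change -0.96), and 3 rose and 17 fell without replicate 1 (median -0.95). Txnip, an inhibitor of glucose uptake, had 148, 220.1 and 225 CPM at 48 h, against 908, 887 and 1212 CPM at 0 h and fell by 2.34 ± 0.17 on the log2 scale. Slfn3 was among the 3 members that rose, with 25.1, 25.6 and 30.6 CPM at 48 h, against 5.14, 4.24 and 7.83 CPM at 0 h (2.24 ± 0.20).

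Activation and costimulation genes were led by the interleukin 2 receptor. In this list, 16 of 27 tested members rose and 8 fell (median log2 change 2.36), and 16 rose and 8 fell without replicate 1 (median 2.49). Il2ra, its high-affinity subunit, had 868, 920.1 and 1005 CPM at 48 h, against 1.58, 3.4 and 3.17 CPM at 0 h, and its log2 fold change was 8.42 ± 0.19 (edgeR adjusted p = 1.38e-13). Il12rb2, a subunit of the interleukin 12 receptor, had 197, 220.5 and 274 CPM at 48 h, against 0.748, 2.02 and 0.687 CPM at 0 h (7.63 ± 0.28), and Tfrc, the transferrin receptor, had 958, 836 and 833 CPM at 48 h, against 72.6, 71.5 and 65.8 CPM at 0 h (3.64 ± 0.08). All 3 genes stood at least 11-fold apart between the closest libraries of the 2 times. Members also fell: Il2rg, the shared cytokine receptor chain, fell by 0.72 ± 0.08 on the log2 scale, and Il18r1, of the interleukin 18 receptor, fell by 1.94 ± 0.14 on the log2 scale. Cd69, an early activation marker, had 152, 224 and 224 CPM at 48 h, against 172, 164 and 193 CPM at 0 h. Its groups overlapped and it was not called (0.18 ± 0.24, edgeR adjusted p = 0.499).

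Of the inhibitory receptors and ligands, 9 of 18 tested members rose and 7 fell (median log2 change 0.68), and 9 rose and 5 fell without replicate 1 (median 0.72). These shares, 50% higher and 38.9% lower, are not far from the 36.4% and 36.2% of all tested genes, so the list as a whole is no result, and single members are given. Lag3 had 60.8, 54.6 and 63.2 CPM at 48 h, against 1.58, 2.31 and 1.05 CPM at 0 h (5.17 ± 0.28, edgeR adjusted p = 3.95e-10) and Ctla4 had 244, 213 and 261 CPM at 48 h, against 8.4, 7.24 and 6.57 CPM at 0 h (5.02 ± 0.29, edgeR adjusted p = 9e-10), both without overlap. Vsir, which encodes the checkpoint receptor VISTA, had 106, 110.3 and 109 CPM at 48 h, against 449.5, 440.4 and 439 CPM at 0 h and fell by 2.03 ± 0.09 on the log2 scale (edgeR adjusted p = 4.78e-11), and Cd96 fell by 1.71 ± 0.06 on the log2 scale.

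Of the cytotoxic granule genes, 7 of 15 tested members rose and 6 fell (median log2 change 0.3), and 7 rose and 6 fell without replicate 1 (median 0.11). The shares of 46.7% higher and 40% lower are likewise near those of all tested genes. Gzmb, granzyme B, had 2616, 1807 and 2461 CPM at 48 h, against 2.3, 3.86 and 3.64 CPM at 0 h (9.45 ± 0.22, edgeR adjusted p = 1.48e-13), and became 1 of the abundant transcripts in every 48 h library. Prf1, the pore-forming protein perforin, had 31.4, 29.9 and 29.6 CPM at 48 h, against 65.3, 67 and 64.7 CPM at 0 h and fell by 1.12 ± 0.11 on the log2 scale (edgeR adjusted p = 2.05e-07). Gzma, granzyme A, had 0.358, 0.319 and 0.0786 CPM at 48 h, against 3.83, 5.07 and 5.35 CPM at 0 h and fell by 4.22 ± 0.44 on the log2 scale. Ctsw, cathepsin W, had 49.6, 45 and 48 CPM at 48 h, against 304, 376 and 349 CPM at 0 h and fell by 2.85 ± 0.10 on the log2 scale, so these 3 granule genes ran opposite to Gzmb. Stx11, a syntaxin needed for granule release, rose, with a log2 fold change of 3.72 ± 0.16.

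Among cytokines, 17 of 22 tested members rose and 3 fell (median log2 change 3.4), and 16 rose and 3 fell without replicate 1 (median 3.13), with 6 of the 28 listed members left untested because of low counts. Il2, the T cell growth factor, had 22.3, 34 and 27.4 CPM at 48 h, against 0.0598, 0.0288 and 0 CPM at 0 h (9.73 ± 0.38, edgeR adjusted p = 1.48e-11). Ifng, interferon gamma, had 238, 124 and 188 CPM at 48 h, against 0.897, 0.461 and 0.239 CPM at 0 h (8.42 ± 0.38, edgeR adjusted p = 6.42e-11), and Tnf had 69.1, 71.3 and 69.1 CPM at 48 h, against 17.7, 9.63 and 9.71 CPM at 0 h (2.5 ± 0.23, edgeR adjusted p = 1.92e-07). Each was higher in all 3 libraries at 48 h. Ltb, lymphotoxin beta, and Il16 were the most abundant members over both times and went the other way: Ltb had 318, 322 and 381 CPM at 48 h, against 707, 761 and 683 CPM at 0 h and fell by 1.08 ± 0.09 on the log2 scale, and Il16 fell by 1.27 ± 0.08 on the log2 scale. Of the chemokines and their receptors, 9 of 18 tested members rose and 5 fell (median log2 change 1.23), and 8 rose and 4 fell without replicate 1 (median 0.88). These shares, 50% higher and 27.8% lower, are not far from the 36.4% and 36.2% of all tested genes, so single members are given. Ccl3 had 233, 265 and 279.6 CPM at 48 h, against 1.32, 0.692 and 0.358 CPM at 0 h (8.36 ± 0.34, edgeR adjusted p = 2.38e-11), Ccl4 had 116, 116 and 117 CPM at 48 h, against 1.02, 0.461 and 0.418 CPM at 0 h (7.52 ± 0.29) and Xcl1 had 185, 233 and 207 CPM at 48 h, against 4.75, 5.39 and 3.85 CPM at 0 h (5.48 ± 0.15). These 3 genes encode attractants of macrophages, T cells and dendritic cells.

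Transcription factors of effector T cells mostly rose. Of them, 15 of 26 tested members rose and 5 fell (median log2 change 0.92), and 15 rose and 6 fell without replicate 1 (median 1.06). Irf4, which scales with the strength of receptor signals, had 636, 643 and 699.9 CPM at 48 h, against 8.58, 8.74 and 11.5 CPM at 0 h (6.1 ± 0.19, edgeR adjusted p = 1.27e-12). Zbtb32, a repressor, had 120.5, 79.3 and 102 CPM at 48 h, against 0.688, 0.0288 and 0.149 CPM at 0 h (8.44 ± 0.34, edgeR adjusted p = 2.22e-11). Runx1 and Id2 were among the 5 that fell. Runx1 had 9.33, 15.5 and 15.1 CPM at 48 h, against 43.3, 44.1 and 48.2 CPM at 0 h and fell by 1.76 ± 0.15 on the log2 scale. Id2, an inhibitor of E proteins, had 31.5, 37.1 and 33.8 CPM at 48 h, against 96.3, 109.97 and 119.9 CPM at 0 h and fell by 1.67 ± 0.14 on the log2 scale, and neither gene overlapped between the times.

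Of the immediate early, NR4A, EGR and NFAT genes, 10 of 27 tested members rose and 13 fell (median log2 change -0.54), and 10 rose and 12 fell without replicate 1 (median -0.27). With 37% higher and 48.1% lower, this list was near the shares of all tested genes. Fos had 7.7, 6.37 and 7.91 CPM at 48 h, against 859.9, 615 and 382 CPM at 0 h and fell by 6.4 ± 0.42 on the log2 scale (edgeR adjusted p = 3.76e-09). Jun had 47.3, 55 and 72.2 CPM at 48 h, against 1071, 701 and 423 CPM at 0 h and fell by 3.65 ± 0.34 on the log2 scale (edgeR adjusted p = 1.6e-07), and Junb fell by 1.97 ± 0.20 on the log2 scale. Within the 0 h group, Fos and Jun were highest in the library labelled cKO replicate 1 and lowest in replicate 3. In contrast, Fosl1, another partner of the AP-1 factor, had 10.8, 13.5 and 11.9 CPM at 48 h, against 0, 0.173 and 0 CPM at 0 h (7.6 ± 0.60), and Egr1, Egr2, Egr3, Nr4a1, Nr4a2 and Nr4a3 were called higher. Of the feedback inhibitors of signalling, 14 of 24 tested members rose and 7 fell (median log2 change 1.19), and 14 rose and 7 fell without replicate 1 (median 1.29). Socs2, a suppressor of cytokine signalling, had 50.4, 42.5 and 48.6 CPM at 48 h, against 0.957, 0.115 and 1.02 CPM at 0 h (6.09 ± 0.36), while Socs3 had 44.9, 51.7 and 55.7 CPM at 48 h, against 308, 313 and 278 CPM at 0 h and fell by 2.56 ± 0.09 on the log2 scale. Of the BCL2 family and death genes, 10 of 20 tested members rose and 3 fell (median log2 change 0.41), and 13 rose and 3 fell without replicate 1 (median 0.5). With all libraries that is 50% higher and 15% lower, against 36.4% and 36.2% of all tested genes. Bcl2l1, the survival factor BCL-XL, had 187, 162 and 169 CPM at 48 h, against 12.8, 10.3 and 11.6 CPM at 0 h (3.9 ± 0.10, edgeR adjusted p = 3.59e-13), and Mcl1, another survival factor, fell by 0.37 ± 0.07 on the log2 scale. Bcl2 was not called, at 0.33 ± 0.14 (edgeR adjusted p = 0.0511), with 256, 394 and 412 CPM at 48 h, against 285, 262 and 297 CPM at 0 h; its value at 48 h was lowest in the library labelled cKO replicate 1, and without replicate 1 it was called, at 0.53 (edgeR adjusted p = 0.00101).

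**Figure D3:**
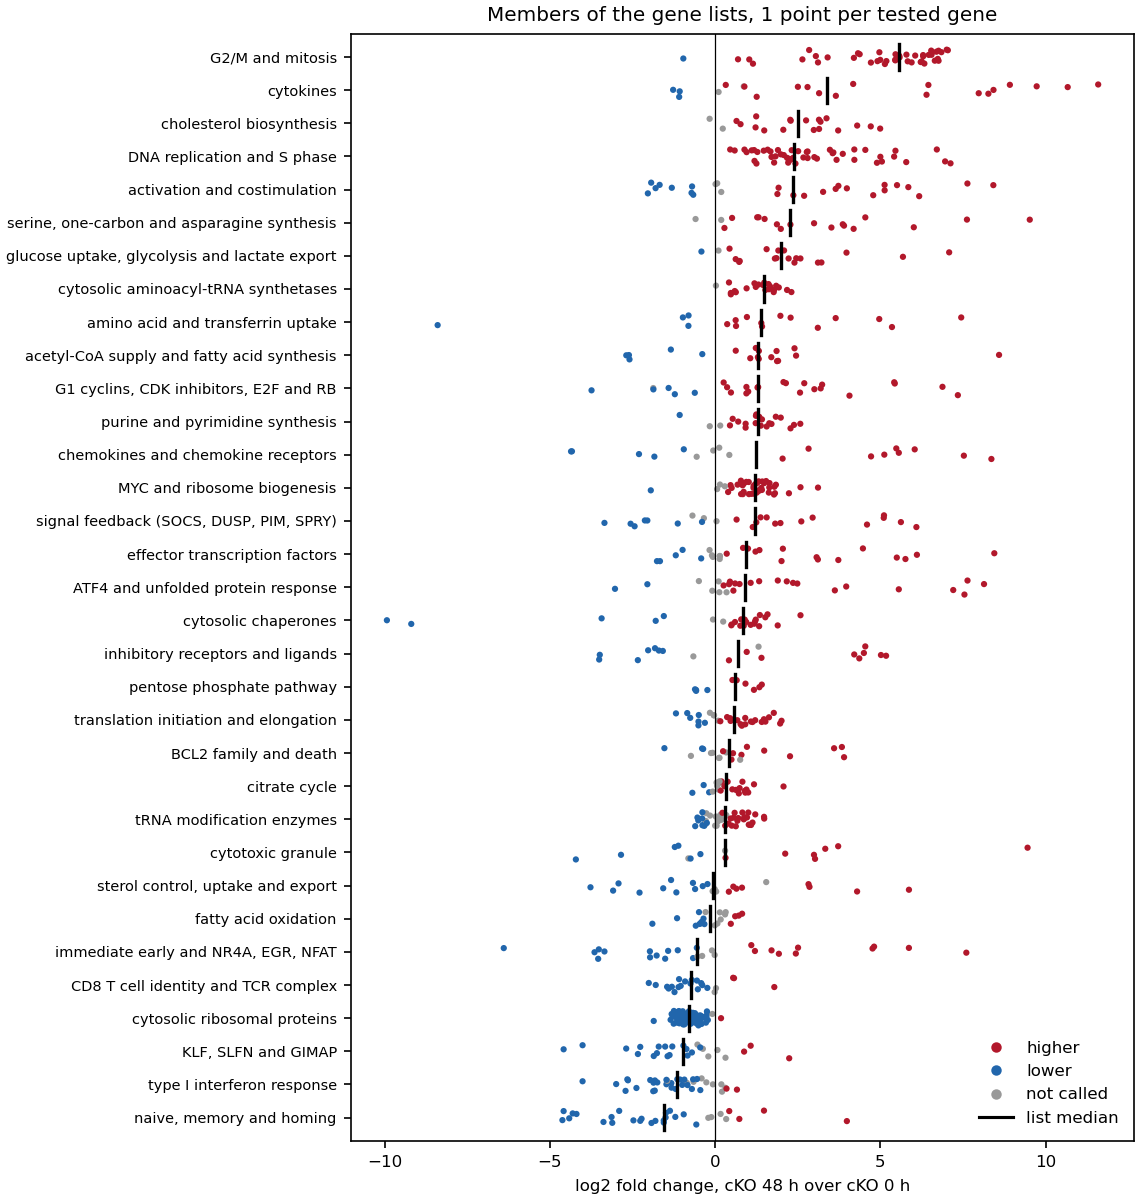
Log2 fold change, cKO 48 h over cKO 0 h, of the tested members of 33 gene lists, with 1 point per gene (red higher, blue lower, grey not called) and a black bar at each list's median. Lists are ordered by their median, from 5.57 for G2/M and mitosis at the top to -1.56 for naive, memory and homing at the bottom.

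Sterol synthesis genes rose. In the cholesterol biosynthesis list, 18 of 20 tested members rose and 0 fell (median log2 change 2.52), and 18 rose and 0 fell without replicate 1 (median 2.42). Cyp51, the sterol 14-demethylase, had 396, 247 and 257 CPM at 48 h, against 13.5, 8.25 and 6.57 CPM at 0 h (4.99 ± 0.30, edgeR adjusted p = 1.27e-09). Idi1, of the isoprenoid branch, had 156, 100.2 and 105 CPM at 48 h, against 5.02, 5.31 and 3.49 CPM at 0 h (4.71 ± 0.31, edgeR adjusted p = 3.48e-09). In both genes the 48 h groups lay above 0 h without overlap, and within 48 h the library labelled cKO replicate 1 was highest. The list summed to 3238, 2005 and 2223 CPM at 48 h, against 375, 355 and 338 CPM at 0 h. The promoter of Hmgcs1, an early enzyme of sterol synthesis (chr13:119690101-119690400, plus strand, GRCm38.p6, RefSeq), is shown with capitals at TCACNCCAC, the core of the sterol regulatory element, and at CCAAT on either strand.
Hmgcs1: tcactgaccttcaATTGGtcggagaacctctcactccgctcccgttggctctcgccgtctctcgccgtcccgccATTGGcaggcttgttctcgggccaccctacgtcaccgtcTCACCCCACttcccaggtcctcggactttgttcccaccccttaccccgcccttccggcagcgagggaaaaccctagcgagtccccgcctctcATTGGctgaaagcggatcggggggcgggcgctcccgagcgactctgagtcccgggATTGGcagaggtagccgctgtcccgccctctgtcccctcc
Of 15 cholesterol genes with a promoter, 1 (6.67%) held TCACNCCAC, against 1.33% of tested genes, and 14 (93.3%) held CCAAT, against 43.4%. The 1 gene with TCACNCCAC was Hmgcs1 itself, the promoter shown, so that share rests on 1 chosen gene. Hmgcs1 had 507, 295 and 321 CPM at 48 h, against 38.8, 35.2 and 34.8 CPM at 0 h (3.37 ± 0.18, edgeR adjusted p = 3.13e-10).

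For sterol control, uptake and export, 8 of 23 tested members rose and 11 fell (median log2 change -0.08), and 8 rose and 10 fell without replicate 1 (median -0.11). That is 34.8% higher and 47.8% lower, near the shares of all tested genes. Abca1, which exports cholesterol, had 9.94, 8.2 and 7.18 CPM at 48 h, against 110.5, 106 and 131 CPM at 0 h and fell by 3.78 ± 0.22 on the log2 scale (edgeR adjusted p = 1.23e-09). Nr1h3, which encodes the oxysterol receptor LXR alpha, had 0.23, 0.266 and 0.21 CPM at 48 h, against 2.51, 2.05 and 1.52 CPM at 0 h and fell by 3.09 ± 0.59 on the log2 scale. Srebf2, the transcription factor of the synthesis genes, had 453, 364 and 393 CPM at 48 h, against 249.9, 229 and 212 CPM at 0 h (0.81 ± 0.10, edgeR adjusted p = 3.17e-06). For acetyl-CoA supply and fatty acid synthesis, 13 of 18 tested members rose and 5 fell (median log2 change 1.3), and 13 rose and 5 fell without replicate 1 (median 1.11). Fasn, fatty acid synthase, had 1149, 677 and 716 CPM at 48 h, against 237, 251 and 215 CPM at 0 h (1.86 ± 0.16, edgeR adjusted p = 9.46e-08), and Fads2, a desaturase near 0 at 0 h, had 56.1, 28.1 and 44.7 CPM at 48 h, against 0.269, 0.0288 and 0.0299 CPM at 0 h (8.59 ± 0.41). Acss2, which makes acetyl-CoA from acetate, had 15, 15 and 15.4 CPM at 48 h, against 85.2, 98.5 and 109 CPM at 0 h and fell by 2.69 ± 0.10 on the log2 scale (edgeR adjusted p = 6.27e-12), while Acly, which makes it from citrate, had 560.2, 410.3 and 473 CPM at 48 h, against 309.6, 286 and 344 CPM at 0 h (0.62 ± 0.10, edgeR adjusted p = 3.89e-05). Of fatty acid oxidation genes, 4 of 20 tested members rose and 9 fell (median log2 change -0.15), and 6 rose and 10 fell without replicate 1 (median -0.22). With all libraries that is 20% higher and 45% lower, against 36.4% and 36.2% of all tested genes. Cpt1a, which admits fatty acids to mitochondria, had 35.4, 35.2 and 34.7 CPM at 48 h, against 145, 119 and 129 CPM at 0 h and fell by 1.9 ± 0.19 on the log2 scale (edgeR adjusted p = 4.08e-07).

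In glucose uptake, glycolysis and lactate export, 18 of 20 tested members rose and 1 fell (median log2 change 2.0), and 17 rose and 1 fell without replicate 1 (median 2.03). Slc16a3, a lactate exporter, had 82, 64.4 and 126 CPM at 48 h, against 0.688, 0.779 and 0.538 CPM at 0 h (7.08 ± 0.29, edgeR adjusted p = 3.04e-11), and Hk2, the inducible hexokinase, had 195, 149.6 and 212 CPM at 48 h, against 3.41, 3.81 and 3.64 CPM at 0 h (5.68 ± 0.16, edgeR adjusted p = 7.66e-13). Pkm, pyruvate kinase, had 3511, 2808 and 3670.2 CPM at 48 h, against 583, 603 and 641 CPM at 0 h (2.45 ± 0.09, edgeR adjusted p = 5.31e-12). The groups of these 3 genes did not overlap. Pkm and other glycolytic genes have processed pseudogenes, so their counts are uncertain to that extent. The pentose phosphate and citrate cycle lists changed less: 6 of 10 tested members rose and 4 fell (median log2 change 0.58) in the pentose phosphate list (6 rose and 3 fell without replicate 1, median 0.49), and 15 of 24 tested members rose and 3 fell (median log2 change 0.33) in the citrate cycle list (13 rose and 4 fell without replicate 1, median 0.28). The pentose phosphate list thus had 60% higher and 40% lower, and the citrate cycle list 62.5% and 12.5%. Over all tested genes it was 36.4% and 36.2%. Fh1, fumarase, had a log2 fold change of 1.17 ± 0.08, and Idh2, a mitochondrial isocitrate dehydrogenase, fell by 0.69 ± 0.12 on the log2 scale. For purine and pyrimidine synthesis, 19 of 22 tested members rose and 1 fell (median log2 change 1.29), and 18 rose and 2 fell without replicate 1 (median 1.2). Cad, the first enzyme complex of pyrimidine synthesis, had 595, 425 and 446 CPM at 48 h, against 158, 157 and 157 CPM at 0 h (1.64 ± 0.11, edgeR adjusted p = 3.42e-09).

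Amino acid supply genes rose, and here the 48 h libraries disagreed. For amino acid and transferrin uptake, 13 of 17 tested members rose and 4 fell (median log2 change 1.39), and 13 rose and 4 fell without replicate 1 (median 1.48). In the list of serine, folate-linked carbon and asparagine synthesis, 17 of 19 tested members rose and 0 fell (median log2 change 2.28), and 18 rose and 0 fell without replicate 1 (median 2.34). Phgdh, the first enzyme of serine synthesis, had 514, 635 and 683 CPM at 48 h, against 119, 129 and 130.01 CPM at 0 h (2.28 ± 0.09, edgeR adjusted p = 3e-11), and Shmt2, which passes a carbon from serine to folate in mitochondria, had 508, 708 and 754 CPM at 48 h, against 168, 168 and 162 CPM at 0 h (1.98 ± 0.11, edgeR adjusted p = 7.11e-10). Asns, which makes asparagine, had 21.3, 221 and 206 CPM at 48 h, against 0.299, 1.12 and 0.836 CPM at 0 h (7.62 ± 0.82, edgeR adjusted p = 8.56e-07). Its rise held in every library, yet the library labelled cKO replicate 1 was far below the other 2 at 48 h. The WT libraries had 37.5, 65.4 and 57.8 CPM of Asns at 48 h. They lay above cKO replicate 1 and well below cKO replicates 2 and 3.

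A tabulation made after seeing these values shows how far this went. It asked, among 9297 genes with a mean of at least 5 CPM at 48 h, which lay at least 4-fold below or above both other libraries of the group. The library labelled cKO replicate 1 had 21 genes below and 1 above, Trmt61a. Replicates 2 and 3 had 0. Among 9060 genes at 0 h, the library labelled cKO replicate 1 had 3 above (Ctrb1, Slc15a2 and Trmt61a) and 1 below (Ifi44), replicate 2 had 0, and replicate 3 had 2 below (Hspa1a and Hspa1b). Slc15a2, a peptide transporter, had 12.3, 1.12 and 1.28 CPM at 48 h, against 46.2, 4.33 and 5.26 CPM at 0 h in cKO, and 4.52, 8.84 and 9.02 CPM at 48 h, against 20.9, 32.6 and 38 CPM at 0 h in WT. Like Trmt61a, it was high in replicate 1 at both times, above the WT libraries, and below all WT libraries in replicates 2 and 3. The 21 at 48 h were Aldh1l2, Angptl6, Anxa3, Asns, Atf5, Chac1, Cth, Ddit3, Gpt2, Il23a, Pck2, Pycr1, Sesn2, Slc1a4, Slc6a9, Slc7a11, Slc7a3, Soat2, Tgm2, Trib3 and Vldlr. Asns, Chac1, Ddit3 and Trib3 are known targets of ATF4, the transcription factor of amino acid shortage and the integrated stress response. Trib3, a pseudokinase induced by ATF4, had 10.5, 114 and 125 CPM at 48 h and 16.8, 40.5 and 29.4 CPM in the WT libraries at 48 h. Ddit3, the stress factor CHOP, had 8.72, 47.6 and 48.1 CPM at 48 h, against 33.5, 26.5 and 22.3 CPM at 0 h. Its 48 h values straddle the 0 h group, and it was not called (0.34 ± 0.42, edgeR adjusted p = 0.474), and its log2 fold change was 0.97 without replicate 1. That value follows from the choice of genes, since the library left out is the low one. In the ATF4 and unfolded protein response list as a whole, 19 of 26 tested members rose and 2 fell (median log2 change 0.9), and 19 rose and 2 fell without replicate 1 (median 0.97). Hspa5, the chaperone BiP of the endoplasmic reticulum, differed less among the 48 h libraries and had 767, 620.1 and 652 CPM at 48 h, against 436, 436 and 472 CPM at 0 h (0.6 ± 0.10, edgeR adjusted p = 4.83e-05).

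**Figure D4:**
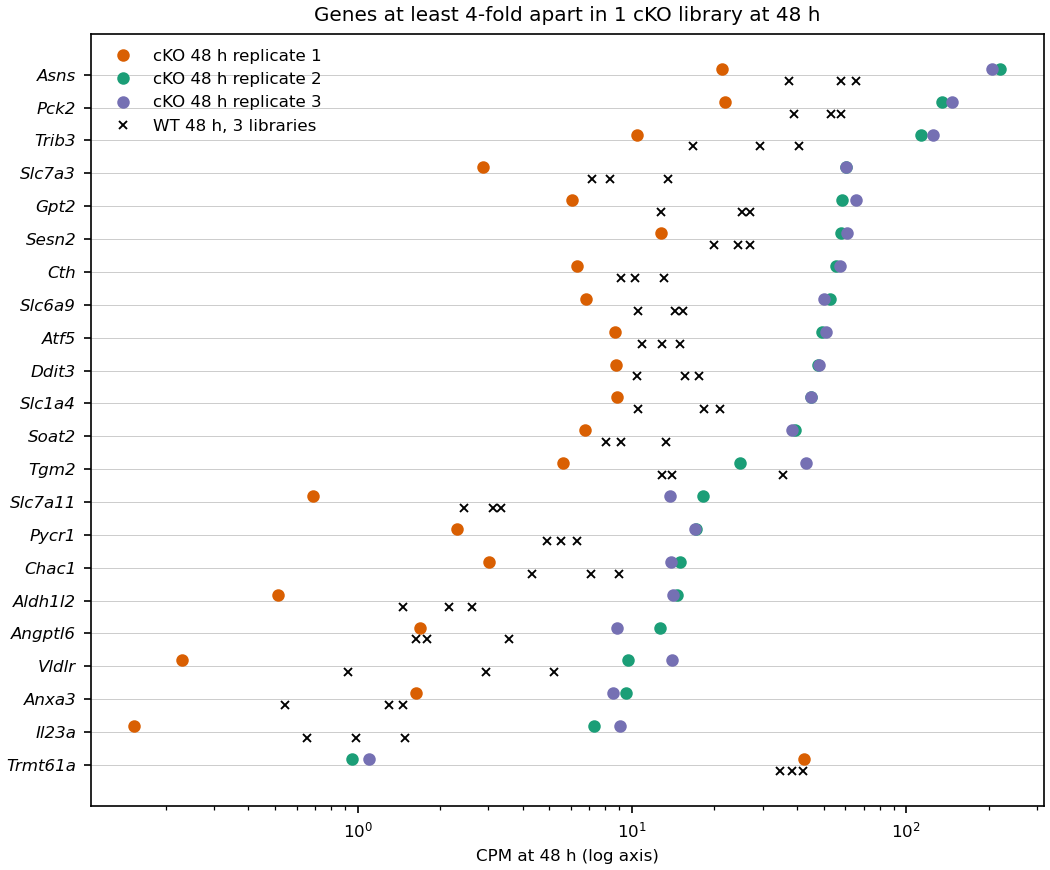
CPM at 48 h on a log axis for the 22 genes in which 1 cKO library lay at least 4-fold from both others of its group, with circles for cKO replicates 1, 2 and 3 and crosses for the 3 WT libraries at 48 h. For 21 genes the library labelled cKO replicate 1 is the lowest circle, and for Trmt61a it is the highest and lies with the WT crosses.

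Promoters of 2 of these genes are shown because letters of the C/EBP-ATF response element TGATGNAA, the composite element bound by ATF4 with C/EBP partners, occurred in them. Capitals mark it on either strand, for Asns (chr6:7693160-7693459, minus strand) and for Slc7a11, the cystine transporter (chr3:50443564-50443863, minus strand), with GRCm38.p6 coordinates and RefSeq sequence.
Asns: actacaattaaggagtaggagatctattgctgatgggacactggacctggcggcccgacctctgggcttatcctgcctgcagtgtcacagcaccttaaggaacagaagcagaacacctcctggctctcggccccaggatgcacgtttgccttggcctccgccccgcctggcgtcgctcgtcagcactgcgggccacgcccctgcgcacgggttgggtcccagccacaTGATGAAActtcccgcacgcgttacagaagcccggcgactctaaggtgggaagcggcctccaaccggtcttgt
Slc7a11: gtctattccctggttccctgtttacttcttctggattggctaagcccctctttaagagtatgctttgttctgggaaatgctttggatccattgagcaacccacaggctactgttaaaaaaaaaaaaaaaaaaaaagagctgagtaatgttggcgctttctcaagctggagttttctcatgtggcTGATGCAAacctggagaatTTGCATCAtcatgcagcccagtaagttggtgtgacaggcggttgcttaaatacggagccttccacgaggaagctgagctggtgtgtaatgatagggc
Of the 21 genes, 14 had a promoter in the table and 8 of the 14 (57.1%) held TGATGNAA, against 2.82% of tested genes and 4.51% of all promoters. In the ATF4 and unfolded protein response list, 5 of 23 (21.7%) held it. The genes were grouped by the values of these libraries, so the share is a description. Slc7a11 had 0.69, 18.1 and 13.8 CPM at 48 h, against 0, 0.144 and 0.0299 CPM at 0 h, and its log2 fold change was 7.44 ± 1.11 (edgeR adjusted p = 2.69e-05) with all libraries and 7.45 without replicate 1.

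The translation machinery moved in parts. Of the MYC and ribosome biogenesis genes, 38 of 42 tested members rose and 1 fell (median log2 change 1.2), and 38 rose and 1 fell without replicate 1 (median 1.12). Myc had 454, 440.3 and 495 CPM at 48 h, against 179, 177 and 174 CPM at 0 h (1.39 ± 0.13, edgeR adjusted p = 1.77e-07). Ncl, nucleolin, had 4416, 3339.7 and 3522 CPM at 48 h, against 1069.6, 1057 and 1096 CPM at 0 h (1.81 ± 0.09, edgeR adjusted p = 1.4e-10), and Odc1, the first enzyme of polyamine synthesis, had 883, 741 and 768 CPM at 48 h, against 94.5, 99.6 and 83.1 CPM at 0 h (3.11 ± 0.11, edgeR adjusted p = 8e-12). The 1 member that fell was Mxd4, a MYC antagonist, which fell by 1.95 ± 0.17 on the log2 scale. The cytosolic aminoacyl-tRNA synthetases charge tRNAs with amino acids, and their list also holds the partner proteins encoded by Aimp1, Aimp2 and Eef1e1. In this list, 22 of 23 tested members rose and 0 fell (median log2 change 1.48), and 21 rose and 0 fell without replicate 1 (median 1.39). Aars, for alanine, had 255, 376 and 407 CPM at 48 h, against 74.4, 74.6 and 61.1 CPM at 0 h (2.31 ± 0.14, edgeR adjusted p = 1.41e-09), and Iars, for isoleucine, had 322, 444 and 472 CPM at 48 h, against 87.5, 100.4 and 86.3 CPM at 0 h (2.17 ± 0.13, edgeR adjusted p = 9.67e-10). Both were higher in every 48 h library, and lowest among these in the library labelled cKO replicate 1.

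Of the tRNA modification enzymes, 23 of 45 tested members rose and 9 fell (median log2 change 0.3), and 22 rose and 9 fell without replicate 1 (median 0.22). With all libraries that is 51.1% higher and 20% lower, against 36.4% and 36.2% of all tested genes. Nsun2, a cytosine methyltransferase of tRNA, had 582, 442 and 487 CPM at 48 h, against 171, 181 and 190.2 CPM at 0 h (1.48 ± 0.09, edgeR adjusted p = 1.78e-09). Pus10, a pseudouridine synthase, had a log2 fold change of 1.48 ± 0.07, and Trmt112, a partner subunit of several methyltransferases, fell by 0.61 ± 0.09 on the log2 scale. Of the translation initiation and elongation factors, 19 of 30 tested members rose and 7 fell (median log2 change 0.57), and 19 rose and 8 fell without replicate 1 (median 0.57). Eif5a had 2094, 1710.3 and 1797 CPM at 48 h, against 457, 467 and 512 CPM at 0 h (1.96 ± 0.08, edgeR adjusted p = 1.65e-11), whereas Eef1a1, the most abundant transcript of the table at both times, had 10089, 12464 and 12459.6 CPM at 48 h, against 19939, 19109 and 20135 CPM at 0 h and fell by 0.76 ± 0.07 on the log2 scale (edgeR adjusted p = 2.15e-07).

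Ribosomal protein genes fell together by modest amounts. Of them, 1 of 79 tested members rose and 77 fell (median log2 change -0.8), and 1 rose and 77 fell without replicate 1 (median -0.77). They summed to 87169.9, 93195 and 95313 CPM at 48 h, against 163818, 153175 and 165913 CPM at 0 h. Rps27 had 552, 628 and 607 CPM at 48 h, against 2199, 2061 and 2236 CPM at 0 h and fell by 1.86 ± 0.08 on the log2 scale (edgeR adjusted p = 3.3e-11), and Rplp0 had 3295, 3401 and 3560.1 CPM at 48 h, against 5396, 4955 and 5339.98 CPM at 0 h and fell by 0.61 ± 0.05 on the log2 scale. Rps2 was the 1 member called higher, at 0.18 ± 0.05 (edgeR adjusted p = 0.00735), and its call was lost with upper-quartile scaling and without replicate 3. Many ribosomal protein genes have processed pseudogenes, so their counts are uncertain.

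Chaperones and interferon response genes also moved. The chaperone list holds cytosolic chaperones and the mitochondrial chaperonin genes Hspd1 and Hspe1. In it, 19 of 26 tested members rose and 5 fell (median log2 change 0.85), and 19 rose and 4 fell without replicate 1 (median 0.72). Hsp90ab1 had 5864, 5136 and 5609 CPM at 48 h, against 2523, 2407 and 2394 CPM at 0 h (1.18 ± 0.06, edgeR adjusted p = 4.77e-10), and the mitochondrial chaperonin gene Hspd1 had 1437, 1054 and 1056 CPM at 48 h, against 210.2, 184 and 199 CPM at 0 h (2.58 ± 0.12, edgeR adjusted p = 1.28e-10). Hspa1a and Hspa1b, a near-identical pair of heat-inducible HSP70 genes, ran the other way: Hspa1a had 0.435, 0.398 and 0.183 CPM at 48 h, against 768, 232 and 6.72 CPM at 0 h, so its 0 h libraries lay far apart. Hspa1b had 1.43, 1.17 and 1.47 CPM at 48 h, against 1691, 664 and 43 CPM at 0 h, with the same order of the 0 h libraries. Of the type I interferon response genes, 2 of 37 tested members rose and 26 fell (median log2 change -1.15), and 1 rose and 27 fell without replicate 1 (median -1.26). Slfn5 had 6.39, 8.6 and 12.9 CPM at 48 h, against 85.6, 117 and 248 CPM at 0 h and fell by 4.01 ± 0.43 on the log2 scale (edgeR adjusted p = 9.21e-07), and Oas2, a sensor of viral RNA, had 4.63, 7.17 and 10.1 CPM at 48 h, against 20.8, 55.7 and 98.4 CPM at 0 h and fell by 3.0 ± 0.54 on the log2 scale (edgeR adjusted p = 0.00017). At 0 h both were highest in replicate 3, and the list summed to 3169, 3463 and 3532 CPM at 48 h, against 3738, 4445 and 6573 CPM at 0 h.

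Markers of other cell types were lower at 48 h for most lists. All 17 B cell markers in the table fell, and they summed to 123, 135 and 129 CPM at 48 h, against 404, 418 and 342 CPM at 0 h. Of 23 tested myeloid markers 18 fell and 0 rose, with sums of 124, 144 and 139.9 CPM at 48 h, against 313, 325 and 338 CPM at 0 h, and Cd14, Siglech, Cd300a and Clec9a had 0 counts in all 3 libraries at 48 h. Of 10 erythroid markers 9 fell, with sums of 1.56, 3.82 and 1.15 CPM at 48 h, against 63.8, 132 and 81.9 CPM at 0 h, and Ahsp was at 0 at 48 h. All 5 tested platelet markers and 8 of 9 tested stromal and endothelial markers fell, with Ppbp, Gp9, Gp1bb, Gp1ba, Emcn and Stab2 at 0 at 48 h and Pdpn at 0 at both times. Of 11 NK and innate lymphoid markers 6 fell and 3 rose, and Ncr1, Klra4 and Klra9 were at 0 at 48 h. The CD4 and regulatory T cell list summed to 432, 481 and 559 CPM at 48 h, against 70.2, 72.6 and 76.7 CPM at 0 h; 6 of its 7 members rose, 3 of which (Cd40lg, Tnfrsf4 and Ctla4) also stand in the lists above, and Cd4 was not called. The part of other cells in the changes of the other lists was not tested.

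Some genes were at 0 counts in all libraries of 1 time. There were 929 with 0 counts at 0 h and counts at 48 h, of which 76 were called, 20 averaged at least 1 CPM at 48 h and 3 at least 5 CPM. Csf2, which encodes GM-CSF, had 6.44, 11.5 and 13.7 CPM at 48 h. Their mean, 10.5 CPM, was at least 119-fold above the level that 3 counts per library would give at 0 h. The bounds in this paragraph all use the mean of 3 libraries, and single libraries can lie below them. Il3, interleukin 3, had 7.23, 3.24 and 6.21 CPM (at least 62.8-fold), and Il23a, a subunit of interleukin 23, had 0.153, 7.3 and 9.04 CPM, with the lowest value in the library labelled cKO replicate 1. Acsl6, Tead1 and H2bc12 followed, at 2.36 to 3.10 CPM on average. In the other direction 1076 genes had 0 counts at 48 h and counts at 0 h, of which 102 were called and 28 averaged at least 1 CPM at 0 h. Mrc1, a macrophage lectin, had 6.4, 2.31 and 2.24 CPM at 0 h (at least 46.6-fold lower at 48 h), and C1qc, a complement component of macrophages, had 4.49, 3.98 and 1.13 CPM (at least 40.9-fold lower). Cela2a, Pnlip and Amy2a1, which encode pancreatic digestive enzymes, also belonged here, and at 0 h nearly all of their counts came from the library labelled cKO replicate 1: Pnlip had 13.9, 0 and 0 CPM, and Cela2a had 14.1, 0.0577 and 0 CPM. Without that library Cela2a lost its call, and Pnlip and Amy2a1 had 0 counts in the other cKO libraries.

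The pathway names of the deposited table gave 296 sets with at least 15 tested genes, covering 5124 genes, and 134 had a median above 0 and 162 below. DNA replication had the highest median: 32 of 35 tested members rose and 2 fell (median log2 change 1.98), and 32 rose and 2 fell without replicate 1 (median 1.88). Repair of DNA followed: for homologous recombination, 29 of 39 tested members rose and 6 fell (median log2 change 1.27). For the proteasome, 38 of 45 tested members rose and 2 fell (median log2 change 0.97), and 36 rose and 2 fell without replicate 1 (median 0.9). Psma1, a subunit of its core, had 205, 185 and 191 CPM at 48 h, against 73.4, 70.2 and 76.5 CPM at 0 h (1.4 ± 0.07, edgeR adjusted p = 4.18e-10), and Psme3, an activator subunit, had 433, 356 and 355 CPM at 48 h, against 146, 150.3 and 158 CPM at 0 h (1.34 ± 0.08). For ribosome biogenesis, 60 of 73 tested members rose and 5 fell (median log2 change 0.78), and for RNA transport, 111 of 153 tested members rose and 16 fell (median log2 change 0.73). Ran, the small GTPase of nuclear transport, had 948, 821 and 801 CPM at 48 h, against 205, 219 and 225 CPM at 0 h (1.99 ± 0.08, edgeR adjusted p = 1.4e-11). For glycine, serine and threonine metabolism, 18 of 29 tested members rose and 5 fell (median log2 change 1.0), and 18 rose and 5 fell without replicate 1 (median 1.78).

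At the other end, for complement and coagulation, 6 of 39 tested members rose and 25 fell (median log2 change -2.75), and 5 rose and 25 fell without replicate 1 (median -2.79). Cd55, a complement regulator on the cell surface, had 19.3, 20.05 and 14.8 CPM at 48 h, against 147, 133 and 108 CPM at 0 h, and fell by 2.84 ± 0.17 on the log2 scale (edgeR adjusted p = 1.42e-09). For hematopoietic cell lineage, 14 of 72 tested members rose and 48 fell (median log2 change -1.67), and 12 rose and 42 fell without replicate 1 (median -1.41); this set holds markers of B and myeloid cells. For lysosome, 21 of 118 tested members rose and 73 fell (median log2 change -0.61), and 20 rose and 70 fell without replicate 1 (median -0.62). Psap, the precursor of the saposins, had 252, 255 and 267 CPM at 48 h, against 754, 774 and 788 CPM at 0 h and fell by 1.58 ± 0.06 on the log2 scale (edgeR adjusted p = 2e-11). Hexa, an enzyme that breaks down sphingolipids, fell by 1.22 ± 0.10 on the log2 scale. Pancreatic secretion had a median of -1.47, and 11 rose and 23 fell without replicate 1 (median -0.38), which is the set with the pancreatic enzyme genes above. Sets share genes, and their names are those of the deposited table.

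**Figure D5:**
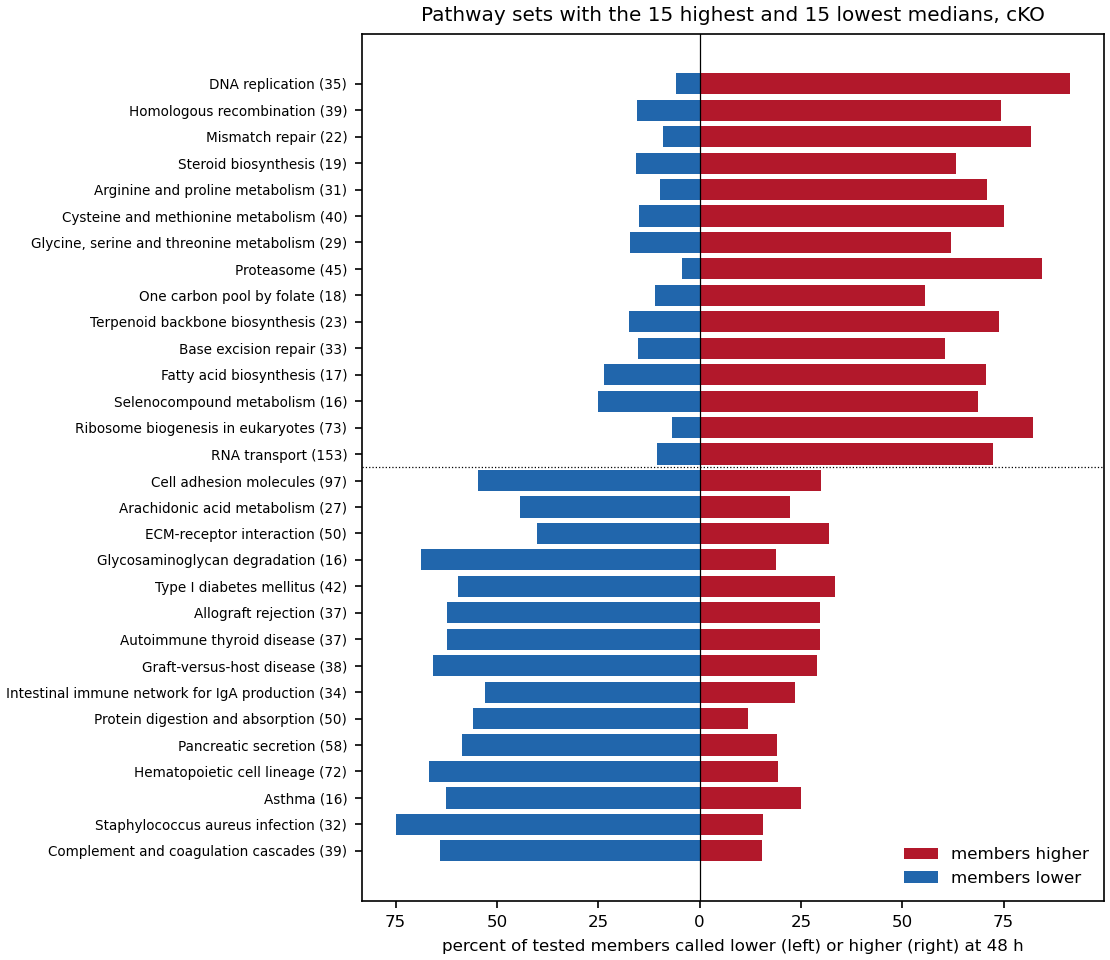
Percent of tested members called higher (red, right) or lower (blue, left) in cKO at 48 h against cKO at 0 h, for the pathway sets with the 15 top and 15 bottom medians, separated by a dotted line, with the number of tested genes in brackets. The highest set, DNA replication, has 91.4% of members higher, and the lowest, complement and coagulation cascades, 64.1% lower.

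Whether the cKO change differed from the WT change over the same time was tested for each gene by the interaction, the cKO change minus the WT change. It called 14 of 12404 genes (0.113%), and 2073 had an unadjusted p under 0.05. For 13 of the 14 the difference was positive, which covers a smaller fall in cKO than in WT as well as a larger rise. Without replicate 1 the interaction test called 448 genes with a positive difference and 425 with a negative one. Omitting only the 48 h library labelled cKO replicate 1 gave 997 calls, whereas edgeR made 0 calls without cKO 48 h replicate 2, where 1422 genes had an unadjusted p under 0.05, so the count rests on single libraries. Galk1, a galactose kinase, had 143, 117 and 140.2 CPM at 48 h, against 25.8, 32.6 and 28.3 CPM at 0 h in cKO, and 164, 162 and 164 CPM at 48 h against 18.2, 21.9 and 17.5 CPM at 0 h in WT. Its rise was smaller in cKO, with an interaction of -0.89 ± 0.15 (edgeR adjusted p = 0.0401). Without replicate 1 the interaction of Galk1 was -1.01 (edgeR adjusted p = 0.00688). Pou2af1, a lymphocyte coactivator, had 26, 33.3 and 28.4 CPM at 48 h, against 22.8, 27.2 and 20.7 CPM at 0 h in cKO, and 16.2, 13.5 and 13.1 CPM at 48 h against 30.6, 26 and 28.3 CPM at 0 h in WT. Its cKO groups overlapped. It was called higher in cKO (0.31 ± 0.13, edgeR adjusted p = 0.0424), a call lost on leaving out any of 4 single libraries, 48 h replicate 2 or 3 or 0 h replicate 1 or 3, while its WT log2 fold change was -0.99, and the interaction was 1.3 ± 0.18 (edgeR adjusted p = 0.0301). Without replicate 1 the interaction of Pou2af1 was 1.35 (edgeR adjusted p = 0.00688).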

How the data were processed

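RNA of CD8 T cells was sequenced in 12 libraries. Total RNA was extracted with TRIzol and made into libraries with a NEBNext Ultra kit, per the labels' protocols. The authors deposited 1 table of whole-number counts per gene for 16352 genes, with pathway and transcription factor family names. The submitters' processing notes name fastp 0.20.1, FastQC 0.11.9, HISAT2 2.1.0, SAMtools 1.9, HTSeq 0.11.2 and GRCm39. The counting mode and strand setting are not given in the sources used here, so overlapping and antisense genes are uncertain.

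From the deposited counts, edgeR 4.0.16 in R 4.3.3 fitted 4 group means to all 12 libraries, with TMM factors, filterByExpr (minimum count 10, minimum total 15), the quasi-likelihood test and Benjamini-Hochberg adjustment over the 12404 genes tested. A call is an adjusted p under 0.05. The fit has 8 residual degrees of freedom. Standard errors are the size of the log2 fold change over the root of the F statistic. Libraries were grouped by their labels, every column of counts was matched to a library, and the fit was tested on simulated data. A tested gene had a median of 951 counts in the cKO libraries.

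Genes named are Trmt61a and a set of 16 others known from T cells, the 12 called genes with the most positive and the 12 with the most negative change at a mean of at least 5 CPM without overlap, in each list the pairs with the strongest rise, the strongest fall and the highest level, the most abundant genes, genes at 0 in 1 group, up to 4 interaction calls in each direction, and up to 3 genes of a pathway set. Cdc6, Lcp2, Slc15a2, Ifi44, the EGR and NR4A genes and the genes in which 1 library stood apart were chosen after their values were seen, and some genes that the rule names are not reported here. The members and the 33 described and 7 marker lists were chosen with earlier results of these data known. Promoters are those of RefSeq on GRCm38.p6, matched by gene ID. Alternatives were other scalings, filters, DESeq2 1.42.0, limma-voom (limma 3.58.1), the 6 cKO libraries alone, a replicate block and leaving out libraries.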

Additional observations from a re-analysis of the deposited data

Results flagged for a closer look

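For 4 of the 14 genes whose change over 48 h differed between cKO and WT by edgeR's interaction test, the mean was at least 5 CPM and the difference was among the largest in its direction. The cKO change minus the WT change was -0.89 on the log2 scale for Galk1 (edgeR adjusted p = 0.0401). It was 1.30 for Pou2af1 (edgeR adjusted p = 0.0301). Kmt2a, a histone methyltransferase, had 0.99 (edgeR adjusted p = 0.0411), and Gbp8, an interferon-induced GTPase, had 0.89 (edgeR adjusted p = 0.0343). Kmt2a and Gbp8 fell in both genotypes, and fell less in cKO. Their log2 fold changes were -0.40 in cKO and -1.39 in WT for Kmt2a, and -0.55 and -1.44 for Gbp8. All 4 genes lost the interaction call without cKO 48 h replicate 2, without cKO 0 h replicate 3, and without cKO replicate 2 or 3 at both times.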

How the results depend on the processing

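The counts of 4513 higher and 4491 lower genes became 2354 and 2064 when at least a 2-fold change was also asked for. They were 4116 and 4917 with upper-quartile scaling, 4638 and 4519 with DESeq2, and 4316 and 4235 in the 6 cKO libraries alone. Leaving out single libraries or replicate numbers gave 4124 to 4386 higher and 4081 to 4320 lower genes. Same-numbered cKO libraries deviated together only weakly (r = 0.052, 0.063 and 0.034 for replicates 1, 2 and 3, each the highest for its number), and the labels tie no number to a mouse, so the values reported have no block. Some genes did follow the number at both times: Trmt61a and Slc15a2 were, among cKO libraries, high in replicate 1 only, and 4 Y-linked genes were, among WT libraries, near 0 in replicate 3 only, a hint that numbers mark a shared origin. The Y-linked genes, Ddx3y, Eif2s3y, Kdm5d and Uty, were expressed in all cKO libraries. The WT side of the interaction, unlike the cKO side, is therefore mixed in these genes. With the replicate block 4429 genes were higher and 4418 lower, and of the 4 interaction genes named Kmt2a lost its call. Of 246 named genes with a value 238 were called, and 213 of these kept the call in every setting while 25 lost it in some. With limma-voom Aldh1l2, Asns, Cth, Gpt2, Slc7a11, Slc7a3, Trib3, Vldlr, Hspa1a, Hspa1b and the pancreatic genes were among those not called. Directions that turned were all of genes not called with all libraries. Trmt61a ranged from -3.30 to 3.47 when a library or number was left out. Hadha ranged from -0.067 to 0.050, and Hadha was 0.00017 with RLE scaling and 0.0017 with DESeq2. Ddit3 was -0.010 with limma-voom and ranged from -0.092 to 0.97 under the omissions. The cause was not tested. The interaction count of 14 was 449 with DESeq2, 19 with limma-voom, 37 with the block, 122 with no filter, 1 without cKO 0 h replicate 2 or 3, and by edgeR 0 without cKO replicate 2 or 3 at both times, where 1163 and 1614 genes had an unadjusted p under 0.05. A count of 0 in a library allows up to 3 counts, so changes of genes near that level rest on few reads.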

Other observations

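Transcription factor families, as named in the deposited table and tabulated after the values were seen, did not move alike. Of 10 tested E2F genes, which control entry into S phase, 9 rose and 1 fell, with a median log2 change of 2.78. The large zf-C2H2 family, which holds the KLF factors and many zinc finger repressors, had 73 of 409 members higher (17.8%) and 192 lower (46.9%), with a median of -0.35. Of 19 ETS genes 5 rose and 11 fell (median -0.80), and of 14 ARID genes, many of them subunits of chromatin complexes, 2 rose and 8 fell (median -0.41). The HMG family had 14 of 27 higher and 8 lower (median 0.29). Over all tested genes 36.4% rose and 36.2% fell.

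Transcripts of pancreatic digestive enzymes were found in some 0 h libraries. Ctrb1, chymotrypsinogen B, had 15.2, 0 and 0 CPM in the cKO libraries at that time, against 0, 5.27 and 25 CPM in the WT libraries. Cela2a, an elastase, had 14.1, 0.0577 and 0 CPM in the cKO libraries. Their level was thus set by 1 cKO library, and Cela2a lost its call without it.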
